A study of Arabidopsis thaliana with 57 samples.

Results

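The SPCH line was set against the SRDX-SPCH line of Arabidopsis thaliana, with all induction times together and the time point as a covariate. The comparison used 23 of the 57 libraries of the series, chosen by their labelled line alone: 12 of SPCH (4 each at 2, 3 and 4 h) and 11 of SRDX-SPCH (4, 3 and 4). An NLS line with 11 libraries (3, 4 and 4) served as the control beside both. All lines were Col-0 plants that carried FAMAp::LHG4-GR, a synthetic transcription factor that the FAMA promoter drives and that reaches the nucleus once dexamethasone (DEX) is given. There it activates the OP promoter, which drove Venus-tagged SPCH in the SPCH line, Venus-tagged SPCH fused to SRDX in the SRDX-SPCH line, and Venus with a nuclear localization signal in NLS. Seedlings at 10 days after germination were treated with 30 µM DEX over 2, 3 or 4 h. Cells of their true leaves were then freed of walls over 2 h and sorted for Venus, about 3000 cells per sample. The times named are those of the DEX treatment and leave out this step. The FAMA promoter is active in late guard mother cells and guard cells and also in myrosin cells, so a sorted sample can hold all of these. Every line kept its own SPCH and FAMA genes. The study describes the fluorescent signal of NLS as different in strength from that of SPCH, so that NLS samples may hold more weakly marked cells, which limits NLS as a control. The sources call the samples of a group biological replicates and do not say how many independent transformants a line stands for, so an effect of the fusion and one of the insertion cannot be told apart.

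SPEECHLESS (SPCH) is a basic helix-loop-helix (bHLH) transcription factor that starts the stomatal lineage and drives its asymmetric divisions, while its relatives MUTE and FAMA act later, on guard mother cells and guard cells. These factors pair with SCRM or SCRM2 and bind E-box motifs. SRDX is a short EAR-type repression domain that recruits corepressors of the TOPLESS family, so that a factor fused to it represses the genes it binds. A gene that is higher with SPCH than with SRDX-SPCH is therefore a candidate for direct activation, which is the question behind the comparison.

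The libraries held 15611364 to 58873262 counts in SPCH (median 35097652) and 7296381 to 45286033 in SRDX-SPCH (median 33455383). The shallowest was SRDX-SPCH 2 h replicate 3. Levels are given as normalized CPM, which are CPM (read counts scaled to a common library size) after TMM scaling with the SPCH row left out. Libraries of both lines spread widely along the first principal component of the 500 most variable genes, which held 71.8% of their variance. SPCH libraries lay between -31.6 and 35.3 on it and SRDX-SPCH libraries between -37.4 and 37.1, so it did not separate the lines. Reads on plastid genes made up 0.186% to 0.532% of SPCH libraries and 0.21% to 0.567% of SRDX-SPCH libraries.

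Both lines were strongly induced, the SPCH line more than the SRDX-SPCH line. Reads on the SPCH gene (AT5G53210) come from the transgene and the endogenous copy alike. They ranged from 8159 to 16250 normalized CPM in SPCH (median 13090), from 4911 to 9806 in SRDX-SPCH (median 6357) and from 9.557 to 30.74 in NLS (median 16.19). The SPCH and SRDX-SPCH ranges overlapped, through libraries of 2 h. The mean log2 level was higher in SPCH by 0.99 (two-sided permutation test within time points, 100000 resamples, p = 2.0e-05). The part of this unequal transcript level in the results that follow was not tested. All other tests left this row out.

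**Figure D1:**
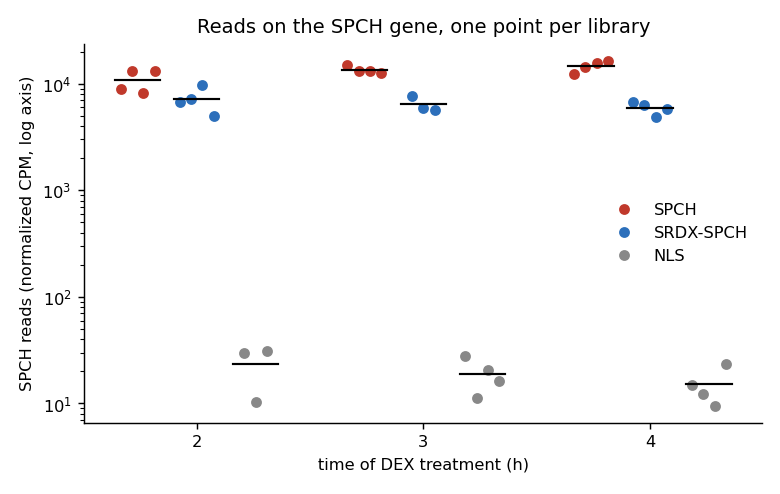
Reads on the SPCH gene in each library (normalized CPM, log axis) against the time of DEX treatment, for SPCH, SRDX-SPCH and NLS; bars mark the group means. SPCH libraries sit between 8159 and 16250, SRDX-SPCH libraries between 4911 and 9806 and NLS libraries at 30.74 or below.

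Of 23955 genes tested, 1559 were higher (6.51%) and 1312 were lower (5.48%) with SPCH than with SRDX-SPCH at an adjusted p under 0.05. All adjusted p-values of the comparison are those of edgeR's quasi-likelihood test, with the Benjamini-Hochberg method applied over every gene tested, and SE is the standard error of a log2 fold change. Most differences were small: the median log2 fold change was 0.42 among the genes higher and -0.51 among the genes lower, beside -0.01 over all genes tested. A log2 fold change of at least 1 in size was reached by 93 of the genes higher and 124 of the genes lower. All SPCH libraries lay above all SRDX-SPCH libraries for 16 genes (0.0668%) and below them for 18 (0.0751%). These are bulk samples, in which fewer cells of a type and less RNA per cell cannot be told apart.

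The 10 genes described first among those higher with SPCH are the ones with the smallest adjusted p whose libraries did not overlap between the lines. They included transport, hormone and metabolic genes and a single transcription factor. ABCC4 (AT2G47800, chr2:19574666-19580615 in TAIR10.1) encodes an ABC transporter known in the control of stomatal aperture. It had 10.2 to 27.1 normalized CPM in SPCH (median 16.03), against 4.20 to 8.38 in SRDX-SPCH (median 7.16) and 5.94 to 16.7 in NLS (median 9.62). Its log2 fold change over SRDX-SPCH was 1.34 (SE 0.146, adjusted p = 8.74e-06). The lowest SPCH library stood clear of the highest SRDX-SPCH library, and the NLS range reached into both.

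The largest differences in this group were those of AT1G23200 and AT2G25450. AT1G23200, annotated in the invertase and pectin methylesterase inhibitor superfamily, had 88.7 to 187 normalized CPM in SPCH (median 155) and 19.2 to 87.9 in SRDX-SPCH (median 45.2). Its log2 fold change was 1.56 (SE 0.194, adjusted p = 3.36e-05). AT2G25450, which encodes an oxoglutarate-dependent oxygenase, had 90.4 to 189.9 normalized CPM in SPCH (median 145.0) and 25.7 to 89.6 in SRDX-SPCH (median 46.8), a log2 fold change of 1.48 (SE 0.179, adjusted p = 2.87e-05). In both genes the gap between the lines was narrow beside the spread within SRDX-SPCH.

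The remaining 7 differed by 0.58 to 1.02 on the log2 scale, with adjusted p-values of 5e-05 or less. PYL5 (AT5G05440), a receptor for abscisic acid, had 68.7 to 96.5 normalized CPM in SPCH (median 80.9) and 43.3 to 66.7 in SRDX-SPCH (median 48.4), a log2 fold change of 0.58 (SE 0.0745). HB-1 (AT3G01470), a homeodomain-leucine zipper transcription factor, had 57.2 to 88.9 normalized CPM in SPCH and 32.5 to 49.8 in SRDX-SPCH, a log2 fold change of 0.84 (SE 0.0991). AAE7 (AT3G16910), an acyl-activating enzyme, had 61.6 to 99.7 normalized CPM in SPCH and 36.1 to 55.5 in SRDX-SPCH, a log2 fold change of 0.73 (SE 0.084). The other 4 were dNK (AT1G72040), a deoxynucleoside kinase, APC6 (AT1G78770), a subunit of the anaphase promoting complex, PMH1 (AT3G22310), a mitochondrial RNA helicase, and AT1G30960, a GTP-binding protein. Genes on the other strand overlapped 350 of the 1440 exon bases of HB-1, 329 of 2628 in AAE7, 108 of 2308 in APC6 and 39 of 2159 in dNK. Whether the counting used strand is not given in the sources used here, so reads of such neighbours cannot be told apart from theirs.

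Among the genes lower with SPCH, the smallest adjusted p belonged to ENODL18 (AT1G08500, chr1:2688880-2690250 in TAIR10.1), which encodes an early nodulin-like protein. It had 4.28 to 9.10 normalized CPM in SPCH (median 7.58), against 13.3 to 27.1 in SRDX-SPCH (median 23.01) and 6.69 to 14.4 in NLS (median 10.2). The log2 fold change over SRDX-SPCH was -1.53 (SE 0.115, adjusted p = 4.63e-08). TPPJ (AT5G65140), a trehalose phosphate phosphatase, had 2.77 to 8.63 normalized CPM in SPCH (median 5.50) and 8.94 to 29.1 in SRDX-SPCH (median 17.4), a log2 fold change of -1.58 (SE 0.158, adjusted p = 2.98e-06). HAC4 (AT1G55970), a histone acetyltransferase of the CBP family, had 1.99 to 9.09 normalized CPM in SPCH (median 4.11) and 9.53 to 18.0 in SRDX-SPCH (median 13.3), a log2 fold change of -1.62 (SE 0.182, adjusted p = 1.24e-05). In TPPJ and HAC4 the highest SPCH library came close to the lowest SRDX-SPCH library without reaching it.

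BNQ2 (AT5G15160), a helix-loop-helix protein without the basic DNA-binding region, had 1.33 to 3.22 normalized CPM in SPCH and 3.57 to 7.73 in SRDX-SPCH, a log2 fold change of -1.33 (SE 0.137, adjusted p = 3.82e-06). CIPK21 (AT5G57630), a kinase that calcium sensors activate, had 22.9 to 30.6 normalized CPM in SPCH and 37.8 to 55.9 in SRDX-SPCH, a log2 fold change of -0.71 (SE 0.0675, adjusted p = 1.89e-06). RD28 (AT2G37180), a plasma membrane aquaporin with a near-identical paralog that the counting could mix with it, had 38.5 to 89.0 normalized CPM in SPCH and 92.0 to 169.4 in SRDX-SPCH. Its log2 fold change was -1.14 (SE 0.115, adjusted p = 2.98e-06). The other 4 of the 10 were the protein kinase gene AT5G56460, the GRAM domain gene AT5G23350, AT1G76620 of unknown function and AT3G09455, annotated as a subunit of an oligosaccharide transferase, with log2 fold changes between -1.70 and -0.94.

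**Figure D2:**
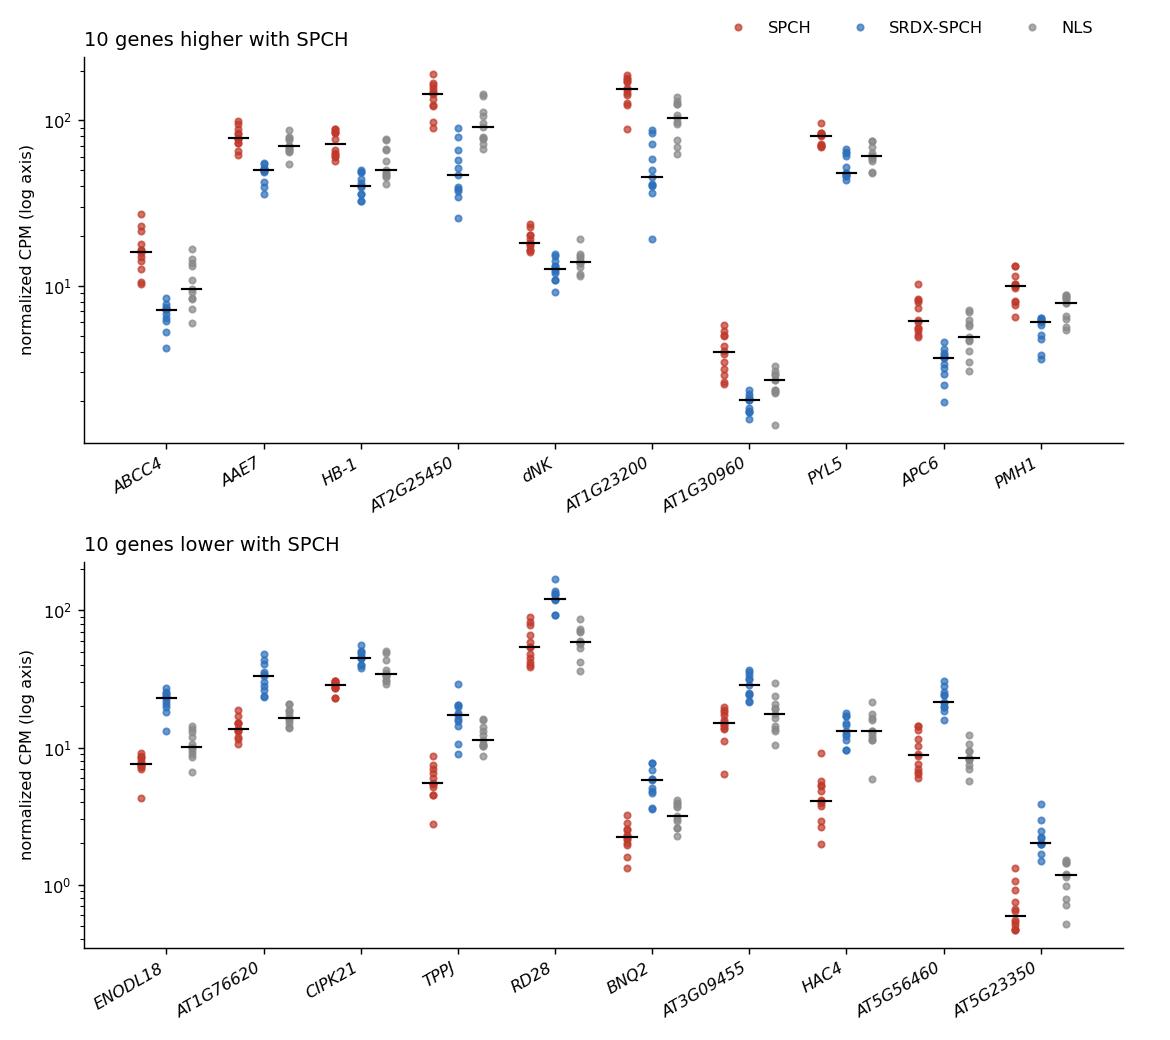
Normalized CPM (log axis) of the 10 genes higher (top) and the 10 genes lower (bottom) with SPCH, chosen by adjusted p among genes whose libraries do not overlap, in SPCH, SRDX-SPCH and NLS; each point is a library and bars mark medians. The NLS median of AAE7 (69.6) lies between those of SPCH (77.8) and SRDX-SPCH (50.3), nearer to SPCH. The NLS median lies near that of SPCH in RD28 (58.7) and near that of SRDX-SPCH in HAC4 (13.2).

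Each line was also set against NLS, with the same NLS libraries in both comparisons. Over all 23959 genes tested, SPCH had 813 genes higher (3.39%) and 1121 lower (4.68%) than NLS, together 8.07% of those tested. SRDX-SPCH had 458 higher (1.91%) and 265 lower (1.11%) than NLS, together 3.02%. The genes named above were chosen because their SPCH and SRDX-SPCH libraries do not overlap. That choice favours lines on opposite sides of NLS, so the counts that follow describe these genes and test nothing. The 10 genes higher with SPCH than with SRDX-SPCH were all above NLS with SPCH, 9 of them past the threshold, and all below NLS with SRDX-SPCH, 7 of them past it. AAE7, for example, had a log2 fold change over NLS of 0.17 in SPCH (adjusted p = 0.251), while in SRDX-SPCH it was -0.56 (adjusted p = 8.2e-05). For dNK the values were 0.42 with SPCH (adjusted p = 0.000246) and -0.17 for SRDX-SPCH over NLS (adjusted p = 0.289). Among the 10 genes lower with SPCH, most lay on opposite sides of NLS in the lines. In SPCH, 9 of the 10 were below NLS, 6 past the threshold. In SRDX-SPCH, 9 of the 10 were above NLS and all 9 passed. The log2 fold change of RD28 over NLS was -0.10 in SPCH (adjusted p = 0.767), while for SRDX-SPCH it was 1.05 (adjusted p = 1.43e-06). The exceptions were AT5G56460, above NLS in both lines (0.17 with SPCH, adjusted p = 0.564, and 1.41 with SRDX-SPCH, adjusted p = 1.04e-07), and HAC4, at -1.65 with SPCH (adjusted p = 1.81e-07) and -0.03 with the SRDX-SPCH line (adjusted p = 0.993).

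The promoters of these 20 genes were searched for E-boxes, the motif class bound by bHLH factors, in the 250 bases before and 50 after the annotated start (RefSeq annotation of TAIR10.1). CACGTG, the G-box form of the E-box CANNTG, was found in 3 of the 10 genes higher and 2 of the 10 genes lower. Both motifs read the same on either strand. For dNK, TPPJ and BNQ2 the 250 bases before the start, which hold the match, are shown 5′ to 3′ in the direction of the gene, with every CANNTG match in capitals, and none contains an exon of another gene. That of dNK is chr1:27114400-27114649 (minus strand), that of TPPJ chr5:26022381-26022630 (minus strand) and that of BNQ2 chr5:4922813-4923062 (minus strand).
dNK: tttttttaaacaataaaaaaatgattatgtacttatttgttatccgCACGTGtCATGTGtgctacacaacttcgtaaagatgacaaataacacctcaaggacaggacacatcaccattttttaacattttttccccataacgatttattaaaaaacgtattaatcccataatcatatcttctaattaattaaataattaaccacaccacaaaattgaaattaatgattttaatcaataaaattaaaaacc
TPPJ: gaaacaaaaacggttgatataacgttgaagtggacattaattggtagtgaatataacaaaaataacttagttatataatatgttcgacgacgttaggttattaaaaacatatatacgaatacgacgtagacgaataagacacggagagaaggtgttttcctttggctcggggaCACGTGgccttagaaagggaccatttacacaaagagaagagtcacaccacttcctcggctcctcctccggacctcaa
BNQ2: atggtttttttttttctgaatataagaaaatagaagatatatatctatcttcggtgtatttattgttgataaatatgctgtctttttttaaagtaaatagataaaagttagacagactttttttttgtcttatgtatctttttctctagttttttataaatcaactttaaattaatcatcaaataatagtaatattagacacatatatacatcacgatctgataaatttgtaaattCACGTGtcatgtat
The dNK window holds CACGTG and, 1 base on, CATGTG, while TPPJ and BNQ2 hold CACGTG alone. Over all called genes with a promoter sequence, CACGTG was present in 166 of 1558 genes higher (10.7%) and 139 of 1311 genes lower (10.6%), beside 1967 of 23837 genes tested (8.25%). CANNTG was present in 62.2% of the genes higher, 64.6% of the genes lower and 62% of the genes tested. The shares of the genes higher and of the genes lower were thus close to each other, and no test was made of them. A match is a description of the sequence and not a binding site.

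Genes of mitosis and cytokinesis were lower with SPCH than with SRDX-SPCH. Of 28 genes for mitotic kinases, cyclins and cytokinesis, 19 were lower and 0 higher, beside 5.48% lower and 6.51% higher over all genes tested. All 28 had a log2 fold change below 0, with a median of -0.69 beside -0.01 over all genes. With each library left out in turn, between 14 and 21 of them were lower. Summed over the list, SPCH libraries had 97.7 to 268 normalized CPM (median 164), SRDX-SPCH libraries 150 to 567 (median 287) and NLS libraries 236 to 591 (median 353). The 2 lines overlapped in this sum, and most SRDX-SPCH libraries were above most SPCH libraries at each time.

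The mitotic A-type cyclin CYCA1;1 (AT1G44110) had 1.21 to 3.92 normalized CPM in SPCH (median 2.41) and 3.47 to 11.4 in SRDX-SPCH (median 6.001), a log2 fold change of -1.44 (SE 0.224, adjusted p = 0.000225). CDKB2;1 (AT1G76540), a kinase made from G2 to mitosis, had 3.70 to 17.3 normalized CPM in SPCH (median 9.26) and 8.73 to 52.4 in SRDX-SPCH (median 24.5), a log2 fold change of -1.39 (SE 0.248, adjusted p = 0.000787). CDKB1;1 (AT3G54180), whose kinase acts in the symmetric division of guard mother cells, had 1.65 to 4.21 normalized CPM in SPCH (median 2.66) and 3.68 to 11.2 in SRDX-SPCH (median 6.11), a log2 fold change of -1.25 (SE 0.182, adjusted p = 0.000126). The ranges of CYCA1;1 and CDKB1;1 overlapped only at their ends, and those of CDKB2;1 over a wider stretch.

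The Aurora kinases, which act on mitotic chromosomes and the spindle, were all lower, with log2 fold changes of -1.20 for AUR3, -1.04 for AUR1 and -0.87 for AUR2 (adjusted p = 0.000921, 0.00138 and 0.00529). So were PLE (-1.03), which encodes a microtubule-bundling protein of the division plane, the cytokinesis genes KN (-0.54) and HIK (-0.67), CDKB1;2, CDKB2;2, CYCA2;2, CYCA2;3, CYCA2;4, CYCB1;3, CYCB2;3, CYCB2;4, CYCB3;1 and the spindle checkpoint gene MAD2. HIK, MAD2, CYCA2;4, CYCB1;3 and CYCB2;4 lost their call in 2 to 14 of the 23 fits that each left out a library, with adjusted p-values of at most 0.117. The highest came without SRDX-SPCH 2 h replicate 1 for MAD2 (0.101), CYCA2;4 (0.0664) and CYCB1;3 (0.0576), and without SRDX-SPCH 3 h replicate 1 for CYCB2;4 (0.117) and HIK (0.0872). The 9 members that did not pass had log2 fold changes of -0.68 to -0.11. Against NLS, 25 of the 28 were lower with SPCH (median -1.08) and 0 with SRDX-SPCH (median -0.34). Over all genes tested, the shares lower than NLS were 4.68% with SPCH and 1.11% with SRDX-SPCH. The study, on the same series, also found terms of DNA replication, mitosis and asymmetric division enriched among genes lower than NLS. It had not expected this for SPCH, whose induction gave extra divisions. As a possible reason it proposed the different cell composition of NLS samples, and it then turned to comparisons without NLS. The part of weakly marked cells in NLS in these values was not tested. Exons of the other strand's genes overlapped several of these. Among them were 877 exon bases of AUR2, 464 of the 1386 of KN and 290 of AUR1. For CDKB1;2 it was 281, for CDKB2;2 192, for AUR3 126 and for CDKB1;1 71.

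**Figure D3:**
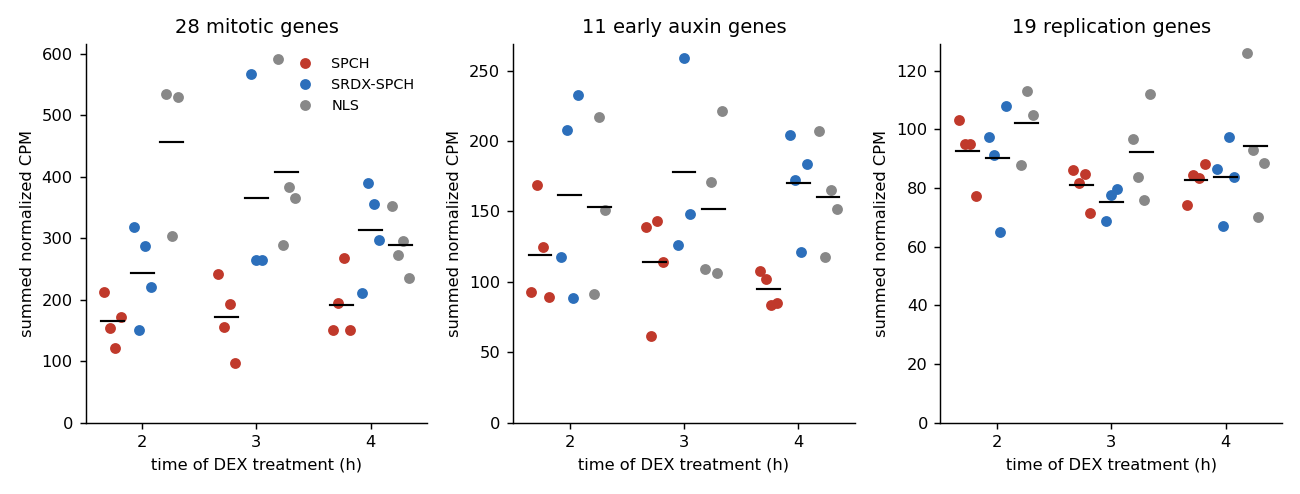
Summed normalized CPM of the mitotic, early auxin response and DNA replication lists in each library against the time of DEX treatment, for SPCH, SRDX-SPCH and NLS; bars mark group means and the axes start at 0. SPCH libraries had 97.7 to 268 of the mitotic list against 150 to 567 in SRDX-SPCH, while the replication list had 71.6 to 103 in SPCH and 65.0 to 108 in SRDX-SPCH.

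Of 19 DNA replication genes, RNR1 (AT2G21790), the large subunit of ribonucleotide reductase, was higher and none was lower, and the list median was 0.00. A share of 5.26% higher is near the 6.51% higher over all genes tested and is no result about the list. RNR1 had 8.66 to 16.6 normalized CPM in SPCH (median 11.2) and 5.40 to 11.5 in SRDX-SPCH (median 7.40), a log2 fold change of 0.58 (SE 0.128, adjusted p = 0.00439).

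Among regulators of the G1 phase, the retinoblastoma homolog RBR1 (AT3G12280), which holds back cell cycle entry and is a partner of FAMA, was higher. It had 95.2 to 129 normalized CPM in SPCH (median 112) and 64.0 to 97.0 in SRDX-SPCH (median 75.6), with a log2 fold change of 0.50 (SE 0.073, adjusted p = 0.000125), and only the extremes of the ranges overlapped. Of the 14 genes for cell cycle inhibitors and RBR1, the inhibitor KRP6 was also higher (log2 fold change 0.47, SE 0.0982, adjusted p = 0.00275), and SMR8 (AT1G10690) was lower. The list thus had 14.3% higher and 7.14% lower, beside 6.51% and 5.48% over all genes tested. SMR8, of the SIAMESE family of inhibitors, had 13.4 to 29.6 normalized CPM in SPCH (median 18.9) and 27.1 to 47.1 in SRDX-SPCH (median 36.0), a log2 fold change of -0.76 (SE 0.109, adjusted p = 0.000109). Of 10 D-type cyclins, which drive cells into the cycle, CYCD2;1 was higher (0.29, adjusted p = 0.00666) and CYCD3;1 lower (-0.59, adjusted p = 0.00904), and CYCD7;1, the cyclin of guard mother cells, had 1.52 to 7.38 normalized CPM in SPCH and 1.48 to 4.94 in SRDX-SPCH (log2 fold change 0.03, adjusted p = 0.976).

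Of the stomatal lineage genes, 1 of 4 bHLH, 3 of 13 signalling, 3 of 9 polarity and 3 of 8 fate genes were lower with SPCH, and 1 signalling gene was higher, beside 5.48% lower and 6.51% higher over all genes tested. FAMA (AT3G24140) had 135 to 316 normalized CPM in SPCH (median 223) and 236 to 429 in SRDX-SPCH (median 280), a log2 fold change of -0.40 (SE 0.126, adjusted p = 0.0389). Its call was lost in 14 of the 23 fits that left out a library and reached 0.0891 without SRDX-SPCH 3 h replicate 1. FAMA also missed the threshold with the replicate number as a block (adjusted p = 0.0706), without the time term (0.0581) and in the fit of all 57 libraries (0.191). That last fit includes the FAMA and SRDX-FAMA lines, in which the FAMA gene itself was induced. It also includes SRDX-FAMA 4 h replicate 2, at 339.2 CPM on FAMA beside 2535 to 5604 in the other SRDX-FAMA libraries. The part of these libraries in the value of 0.191 was not tested. MUTE, which commits cells to the guard mother cell, was at 1.31 to 5.68 normalized CPM in SPCH and 0.994 to 3.01 in SRDX-SPCH (log2 fold change 0.49, SE 0.225, adjusted p = 0.178). The partner gene SCRM was at 387 to 575 normalized CPM in SPCH and 367 to 591 in SRDX-SPCH (log2 fold change -0.04, adjusted p = 0.871), and SCRM2 also did not pass.

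Of 13 genes for stomatal signalling and patterning, 3 were lower and 1 was higher. SDD1 (AT1G04110), a subtilisin-type protease that limits stomatal density, had 23.1 to 95.6 normalized CPM in SPCH (median 62.0) and 62.8 to 233.8 in SRDX-SPCH (median 146), a log2 fold change of -1.23 (SE 0.238, adjusted p = 0.00152). The peptide genes EPF2, an inhibitor of stomatal entry (-0.45, adjusted p = 0.0207), and STOMAGEN, its antagonist (-0.87, adjusted p = 0.0101), were lower at medians of 2.39 and 0.886 normalized CPM in SPCH and 3.82 and 1.61 in SRDX-SPCH. EPF2 missed the threshold in a fit of all 57 libraries (adjusted p = 0.0558). The kinase gene MKK4 was higher (0.36, adjusted p = 0.0384) and lost its call in 13 of the 23 fits that left out a library, with 0.0793 without SRDX-SPCH 3 h replicate 2. The receptor gene TMM was at 78.7 to 257.9 normalized CPM in SPCH and 118 to 191 in SRDX-SPCH (log2 fold change 0.17, adjusted p = 0.61).

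Of 9 genes for polarity and asymmetric division, the polarity gene BASL (AT5G60880) was lower, with 0.407 to 1.31 normalized CPM in SPCH (median 0.888) and 1.002 to 2.87 in SRDX-SPCH (median 1.73) and a log2 fold change of -1.10 (SE 0.236, adjusted p = 0.00342). BRXL2, a member of the BREVIS RADIX family that acts with BASL, was lower too (-0.61, adjusted p = 0.00265), as was SOL2, a CXC-domain regulator of cell divisions in the lineage (-0.45, adjusted p = 0.0204). A gene on the other strand overlapped 716 of the 3534 exon bases of SOL2. POLAR, a scaffold partner of BASL, was at 6.17 to 12.4 normalized CPM in SPCH and 6.66 to 11.7 in SRDX-SPCH (-0.14, adjusted p = 0.549). Of 8 genes for guard mother cell and guard cell fate, CDKB1;1, FLP and MYB88 were lower and none was higher. FLP (AT1G14350), a MYB factor that ends divisions after the guard mother cell, had 3.19 to 10.5 normalized CPM in SPCH (median 5.27) and 8.02 to 19.2 in SRDX-SPCH (median 9.47), a log2 fold change of -1.01 (SE 0.182, adjusted p = 0.000861). Its close relative MYB88 differed by -0.43 (adjusted p = 0.0171), and the guard cell factor SCAP1 by -0.17 (adjusted p = 0.448).

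Of 13 guard cell function genes, ALMT12 (AT4G17970), an anion channel of stomatal closure, was higher. It had 27.5 to 92.6 normalized CPM in SPCH (median 49.4) and 10.13 to 42.5 in SRDX-SPCH (median 26.9), a log2 fold change of 1.06 (SE 0.234, adjusted p = 0.00419). The other 12 did not pass, and the list median was 0.05. A count of 1 in 13 is near the 6.51% higher over all genes tested.

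**Figure D4:**
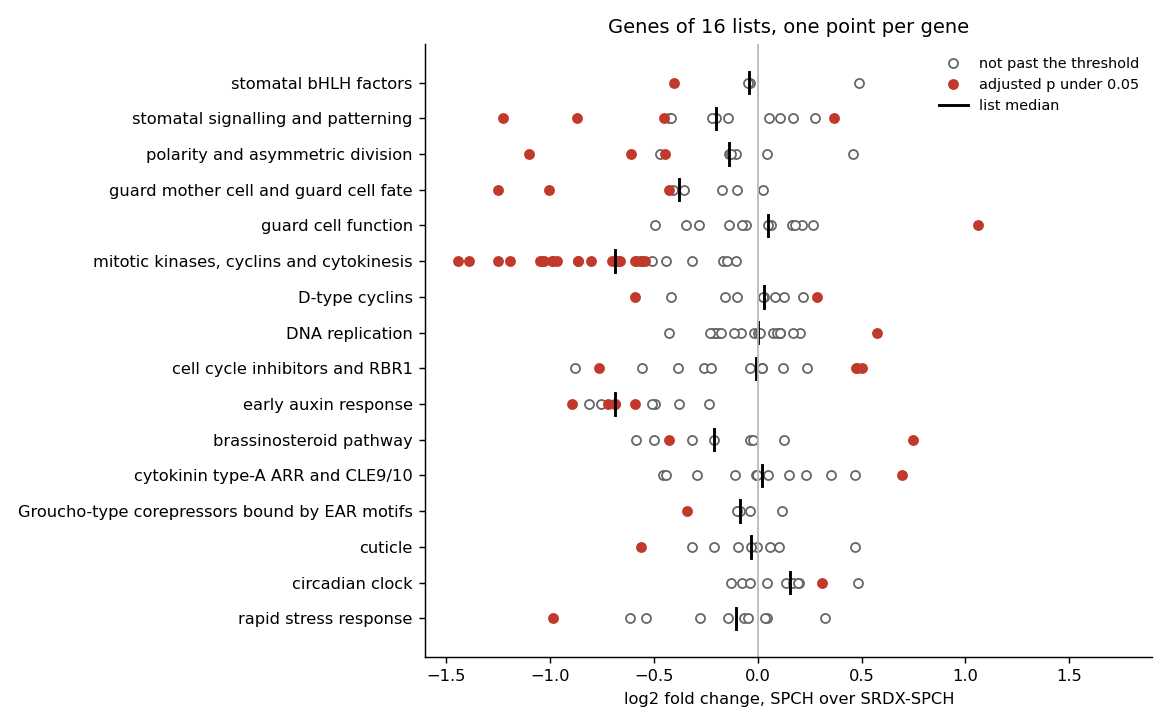
Log2 fold change of SPCH over SRDX-SPCH for the genes of 16 lists (rows), one point per gene; filled points passed an adjusted p of 0.05 in edgeR's quasi-likelihood test, open points did not, and black bars mark list medians. The mitotic list (median -0.69) and the early auxin list (-0.69) lie below 0 with every member, and each other list has members on both sides of 0.

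Markers of cell types were compared too, and over all genes tested 6.51% were higher and 5.48% lower. None of the 5 guard cell markers passed, and their sum was 563 to 1100 normalized CPM in SPCH (median 869) and 675 to 1320 in SRDX-SPCH (median 945). The myrosinase genes TGG1 and TGG2, markers of myrosin cells of which TGG1 is abundant in guard cells too, summed to 46100 to 84900 normalized CPM in SPCH (median 67300), 32700 to 59900 in SRDX-SPCH (median 47100) and 22900 to 46000 in NLS (median 31700). TGG1 was higher with SPCH (0.50, adjusted p = 0.00633) and TGG2 did not pass. The 3 meristemoid markers EPF2, BASL and POLAR summed to 9.22 to 15.1 normalized CPM in SPCH and 11 to 18.1 in SRDX-SPCH. Of 4 epidermal markers, PDF1 (-1.02, adjusted p = 0.0114) and ATML1 (-0.34, adjusted p = 0.0339) were lower. The other 2 did not pass, and 1 of the 4 had a log2 fold change above 0 (0.10). The sums of the 4 were 221 to 744 normalized CPM in SPCH and 372 to 625 in SRDX-SPCH. Of 2 xylem markers, IRX3 was lower (-1.12, adjusted p = 0.0358) and the other did not pass. The 2 summed to 4.68 to 21 normalized CPM in SPCH and 8.23 to 52 in SRDX-SPCH. None of the 5 mesophyll (1350 to 2840 normalized CPM in SPCH, 1460 to 2850 in SRDX-SPCH), 4 phloem (11.1 to 66.3 in SPCH, 14.2 to 50.9 in SRDX-SPCH) or 3 trichome markers (1.07 to 2.98 in SPCH, 0.668 to 2.53 in SRDX-SPCH) passed. The part of these cell types in the lists above was not tested. ATML1 and IRX3 lost their calls in 11 and 10 of the fits that left out a library, both with the highest adjusted p without SRDX-SPCH 3 h replicate 2 (0.0654 for ATML1, 0.135 for IRX3).

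Early auxin response genes were the other list that lay on the same side in every member. All 11 had a log2 fold change below 0, with a median of -0.69. Of these, 4 passed the threshold, all of them lower, beside 5.48% lower over all genes tested. GH3.5 (AT4G27260), which encodes an enzyme that conjugates auxin to amino acids, had 8.21 to 29.95 normalized CPM in SPCH (median 21.1) and 22.1 to 43.2 in SRDX-SPCH (median 33.8), a log2 fold change of -0.72 (SE 0.146, adjusted p = 0.0022). The Aux/IAA repressor genes IAA19 (-0.59, adjusted p = 0.0067), IAA5 (-0.89, adjusted p = 0.0101) and IAA2 (-0.69, adjusted p = 0.0488) were lower, and IAA2 lost its call in 15 of the 23 fits that left out a library (0.138 without SRDX-SPCH 3 h replicate 2). The list summed to 61.5 to 169 normalized CPM in SPCH (median 105), 88.6 to 259 in SRDX-SPCH (median 172) and 91.3 to 221 in NLS (median 152). Against NLS the list median was -0.53 in SPCH, with 3 of 11 lower, and 0.14 in SRDX-SPCH, with 0 called. Over all genes tested, 4.68% were lower than NLS with SPCH and 1.11% with SRDX-SPCH.

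In the other hormone lists single genes passed. In the brassinosteroid pathway, the biosynthetic enzyme gene DWF4 was higher, with 11.4 to 28.6 normalized CPM in SPCH and 6.45 to 15.5 in SRDX-SPCH (0.75, adjusted p = 0.0106), and the transcription factor gene BZR1 was lower, with 46.7 to 86.1 in SPCH and 79.1 to 119.7 in SRDX-SPCH (-0.43, adjusted p = 0.00203). Genes on the other strand together overlapped 502 exon bases of BZR1. Of 12 genes for type-A response regulators and CLE peptides, ARR7, which dampens cytokinin signalling, was higher, with 10.7 to 22.3 normalized CPM in SPCH and 3.83 to 13.9 in SRDX-SPCH (0.70, adjusted p = 0.00521).

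The corepressor genes that EAR motifs recruit were present in every library. TPL, named here after its values were seen, had 202 to 302 normalized CPM in SPCH and 224 to 300.1 in SRDX-SPCH (-0.09, adjusted p = 0.453). TPR1, the 1 of 5 that passed, had 76.6 to 116 in SPCH and 99.2 to 140 in SRDX-SPCH (-0.34, adjusted p = 0.00417). Over all genes tested 5.48% were lower, and a single gene of 5 is not read as a result about the list. Of the stress genes, WRKY46 (AT2G46400), a transcription factor of defence and drought responses, had 6.56 to 13.5 normalized CPM in SPCH (median 9.09) and 10.7 to 29.7 in SRDX-SPCH (median 18.4), a log2 fold change of -0.98 (SE 0.135, adjusted p = 7.18e-05). It was the 1 of 10 that passed. Of 10 clock genes GI was higher (0.31, adjusted p = 0.029) and of 9 cuticle genes CER1 was lower (-0.56, adjusted p = 0.0454). GI lost its call in 7 of the 23 fits that left out a library (0.0563 without SPCH 4 h replicate 1) and CER1 in 16 (0.0935 without SRDX-SPCH 2 h replicate 4), and CER1 reached 0.137 without the time term. Single genes in lists of 9 to 12, as in the stress, clock, cuticle, D-type cyclin and response regulator lists, are near the share called over all genes (6.51% higher, 5.48% lower) and are no result about those lists.

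Within single time points the difference was seen in far fewer genes. At 2 h, 1 of 24639 genes passed (0.00406%), and 1715 had an unadjusted p under 0.05. At 3 h, 66 genes were higher (0.268%) and 72 lower (0.292%), together 0.56%, and at 4 h 44 were higher (0.179%) and 51 lower (0.207%), together 0.386%. Leaving out a library moved these counts by over 1.5 times in 10 of 23 fits at 3 h, to as few as 5 genes without SPCH 3 h replicate 4, and in 8 of 23 at 4 h, where 13 genes passed once SPCH 4 h replicate 4 was dropped and 464 once SPCH 4 h replicate 2 was. The count at 2 h lay between 0 and 13 and moved in 19 of 23 fits. DESeq2's Wald test, fitted to the libraries of each time point alone and not to all of them jointly, called 216, 1288 and 366 genes at 2, 3 and 4 h. ENODL18 was the gene called at 2 h and had the smallest adjusted p at each time, with log2 fold changes of -1.25, -1.65 and -1.69 (adjusted p = 0.0341, 0.00102 and 0.000327). TPPJ (adjusted p = 0.00255) and BNQ2 (adjusted p = 0.00669) came next at 3 h, and RD28 (adjusted p = 0.000602) and AT1G76620 (adjusted p = 0.00123) at 4 h. A change of the difference with time was called for 0 genes by edgeR (273 at an unadjusted p under 0.05) and for 0 by DESeq2's likelihood ratio test (333). The mitotic list had medians of -0.51, -1.05 and -0.68 at 2, 3 and 4 h, and the early auxin list -0.40, -0.63 and -0.90.

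**Figure D5:**
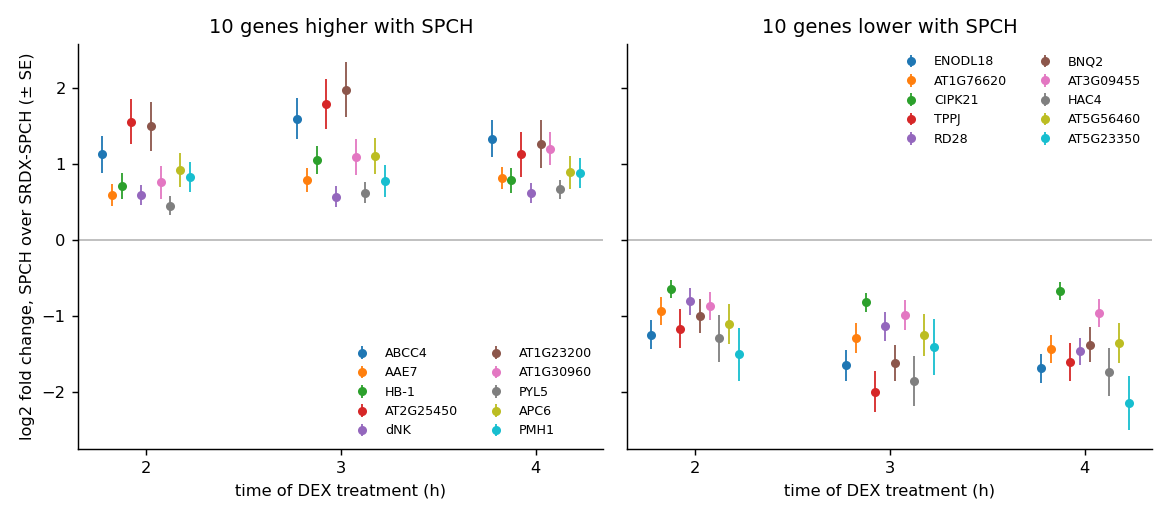
Log2 fold change of SPCH over SRDX-SPCH at 2, 3 and 4 h of DEX for the 10 genes higher (left) and the 10 genes lower (right), with bars of 1 standard error. The choice of genes whose libraries do not overlap fixes the direction at each time, so only the sizes are to be read, and ENODL18 lies at -1.25, -1.65 and -1.69.

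For 3 further gene lists, the study chose genes on responses in its SPCH and FAMA libraries. The SPCH libraries are those used here, so the direction of the lists is not independent evidence. Of the 23 putative targets of SPCH or FAMA, 10 were lower and 0 higher, with a median of -0.55. SDD1, SLL3 (-1.09), PDF1, WRKY46, GRPL1 (-0.77), SLL1 (-0.68), RIP3 (-0.66), BRXL2, RGF6 (-0.60) and MYB77 (-0.36) were the 10. SLL1 and MYB77 lost their calls in 7 and 14 of the fits that left out a library (0.0846 and 0.0837 without SRDX-SPCH 3 h replicate 1). A gene on the other strand overlapped 673 of the 680 exon bases of RGF6. Reads of that neighbour cannot be told apart from those of RGF6 if the counting did not use strand. Of 741 responding genes listed as bound by SPCH, 63 were higher and 153 lower, with a median of -0.22. Of 116 listed as induced by SPCH in earlier experiments, 6 were higher and 27 lower, with a median of -0.39. The background in this comparison was 6.51% higher and 5.48% lower, with a median of -0.01.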

How the data were processed

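RNA of sorted cells was amplified with a SMART-Seq kit and sequenced as single-end reads. Alignment by the authors used STAR and TAIR10, and HTSeq gave the deposited raw counts, which cover 27655 genes in 57 libraries and carry no normalization. Versions and the use of strand are not given in the sources used here. Line, time and replicate came from the sample labels, and 0 columns were left unmapped.

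Counts of 23 libraries were filtered with filterByExpr (minimum count 10), scaled by TMM and tested with edgeR's quasi-likelihood test (edgeR 4.0.16, R 4.3.3) on time point and line, with Benjamini-Hochberg adjustment. The row AT5G53210 was left out. Contrasts within time points came from a fit of 6 groups, those with NLS from a fit of 34 libraries. Normalized CPM were scaled over those 34. DESeq2 1.42.0 and limma 3.58.1 were alternatives. The members and lists were chosen with earlier results of these data known. The genes named were the 10 per direction with the smallest adjusted p and non-overlapping libraries, list members past the threshold, 9 lineage genes whatever their test, and the first 3 per time point. Of 23955 genes tested, 23838 matched the TAIR10.1 gene table. The fits were tested on simulated data. P-values measure the spread between the samples of a group. The promoter sequence of 1 further gene is not reported here.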

Additional observations from a re-analysis of the deposited data

Results flagged for a closer look

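In 35 tests, each of a quantity in a group of 4 samples, 3 values lay far from the rest of their group. Chance gives about 1 in 20 tests. The same groups were tested for several quantities, so the tests are not independent. The mesophyll marker sum was 1710 normalized CPM in SPCH 2 h replicate 1, with the other 3 at 2390 to 2500, and 2850 in SRDX-SPCH 2 h replicate 4, with the other 3 at 1770 to 1900. The myrosin cell marker sum was 63200 normalized CPM in SPCH 3 h replicate 2, with the other 3 at 84200 to 84900.

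Outside the comparison, the library labelled SRDX-FAMA 4 h replicate 2 had 9511 CPM of the whole library on the SPCH gene, where SPCH libraries had 8034 to 15250 and SRDX-SPCH libraries 4910 to 9467 in the same unit, and 339.2 CPM on the FAMA gene. All other libraries outside the comparison had between 5.473 and 277.1 CPM on the SPCH gene. It was used only in the fit of all 57 libraries.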

How the results depend on the processing

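The pooled comparison gave 743 genes higher and 568 lower at an adjusted p under 0.01, and between 1156 and 1923 higher and 1011 and 1598 lower with each library left out in turn. Of the 2871 genes called, 2848 were also called by DESeq2 and 2204 to 2748 with a library left out, and 0 turned round in any setting run. The counts per time point depended on the fit. Separate edgeR fits gave 0, 70 and 2 genes at 2, 3 and 4 h. DESeq2's Wald test, also fitted to each time point alone, gave 216, 1288 and 366. Leaving out each library from the joint edgeR fit gave 0 to 13, 5 to 228 and 13 to 464. The cause was not tested.

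Same-numbered samples of the lines correlated between -0.57 and 0.579 in 11 pairs, 3 of them over 0.1, and same-lettered samples between -0.501 and 0.479 in 8 pairs, so neither was taken to pair the samples. With the replicate number as a block the fit gave 1223 genes higher and 1094 lower in the pooled comparison, 0, 22 and 34 genes at 2, 3 and 4 h, and 17 mitotic and 3 early auxin genes lower. With the letter of the library name as a replicate block, 1900 genes were higher, 1911 lower, and 7 early auxin genes lower.

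In the lists, DESeq2's Wald test called 2 genes higher in stomatal signalling, 1 higher in polarity, 1 lower in guard cell function, 2 lower in the brassinosteroid pathway, 1 lower among the response regulators and 2 lower among the stress genes (also 2 with DESeq2's size factors). With the first principal component as a covariate, added after seeing the data, the counts were 2 higher in signalling, 1 higher in polarity, 2 lower among inhibitors, 2 lower in the brassinosteroid pathway, 2 higher and 1 lower among the response regulators and 2 lower among the stress genes. Named genes past the threshold kept their direction in all settings run, and 204 of the values lost the call. CYCD7;1, which did not pass, ran from -0.131 to 0.185 on the log2 scale and changed sign. The part of depth in these calls was not tested.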

Other observations

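Genes with the highest loadings on the first principal component of the 23 libraries were CHX12, a cation exchanger gene (0.0681), AT5G62800 (0.0634) and PA2, a peroxidase gene (0.0623). The lowest loadings were -0.0141 for PYK10, the beta-glucosidase of ER bodies, and -0.0109 for AT4G13992. With the component as a covariate, added after seeing the data, 2014 genes were higher and 1679 lower with SPCH than with SRDX-SPCH.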
